A study of Sus scrofa with 20 samples.

Results

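The classical complement pathway genes C1R (ENSSSCG00000000675) and C4A (ENSSSCG00000001427), their inhibitor SERPING1 (ENSSSCG00000013181) and the serum amyloid gene SAA4 (ENSSSCG00000021847) were followed in testis tissue of 20 boars. They are 4 of the 21306 genes listed in the count files of both breeds, and all 4 passed the filter on low counts. The genes were picked because the study found them to differ between boars with high and low sperm DFI, C1R, C4A and SERPING1 in both breeds and SAA4 in Duroc. Their values in those contrasts are therefore given as a description without a test, whereas the breeds were compared with a test that is not fully independent of the choice.

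Complement is a chain of plasma proteases and binding proteins that marks cells and immune complexes and can pierce membranes. C1r is the protease that starts the enzymatic part of the classical pathway inside the C1 complex, and C4, encoded by C4A, is cleaved in the step that follows. SERPING1 encodes the C1 inhibitor, a serpin that blocks C1r and C1s. SAA4 encodes the constitutive serum amyloid A, an apolipoprotein of high-density lipoprotein that is made mainly in the liver and, unlike other serum amyloids, changes little in the acute phase. In the testis, complement is known mainly for the regulators that shield sperm.

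DFI, the DNA fragmentation index, is the share of sperm DNA that denatures in acid, read by flow cytometry after acridine orange staining. The groups were Landrace boars with low DFI (n = 5, 0.62 to 1.7% in the sample labels), Landrace boars with high DFI (n = 4, 5.58 to 8.04%), Duroc boars with low DFI (n = 5, 1.05 to 1.13%) and Duroc boars with high DFI (n = 6, 4.13 to 5.63%). All were boars of an artificial insemination station with no treatment named, taken as the extremes of a larger set, and their ages are not given per group. One piece from the middle of 1 testicle per boar was sequenced, as whole tissue. In such samples, fewer cells of a type and less RNA per cell cannot be told apart. The DFI values printed are those of the sample labels, and the study's own table differs from them for some Landrace boars. Boars are named here by group and a number in the order of accession, which pairs nothing.

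Total counts per library were 18086448 to 51782156. The smallest library was that of Landrace high 1. Spermatid markers were high in all boars, as the label testis implies. The sample titles of Landrace low 1 and 2 and of all high DFI Landrace boars are consecutive numbers, whereas Landrace low 3, 4 and 5 and all Duroc boars do not belong to that series. The meaning of the numbers is not given, so breed and number series cannot be told apart among the high DFI boars. Levels are CPM, that is reads relative to the library size, after scaling with the trimmed mean of M values (TMM). They compare boars for 1 gene and do not compare genes, since reads were not divided by gene length.

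The activator C1R was measured with 243 to 1879 reads per boar. In the low DFI group of Landrace its level was 7.15, 5.75, 10.1, 14.2 and 11.5 CPM in boars 1 to 5, and in the high DFI group 19.2, 43.6, 13.0 and 14.1 CPM in boars 1 to 4. The groups overlapped, because Landrace low 4 lay above the high DFI boars 3 and 4, and Landrace high 2 stood far above every other boar. The means were 9.74 ± 3.37 CPM (SD, n = 5) and 22.5 ± 14.4 CPM (SD, n = 4), with a logFC (log2 fold change, high against low DFI) of 1.21 (SE 0.37). Without Landrace high 2 the logFC was 0.66, over 1.5 times smaller. In Duroc the low DFI boars had 6.40, 8.13, 7.0, 7.79 and 13.0 CPM of C1R, and the high DFI boars 9.82 to 18.0 CPM with a median of 14.3. In 4 of the 6 high DFI boars C1R exceeded its level in every low DFI boar, and Duroc low 5 was the low DFI boar that reached into the high range. The Duroc means were 8.47 ± 2.64 (SD, n = 5) and 14.0 ± 2.97 CPM (SD, n = 6), with a logFC of 0.72 (SE 0.20).

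C4A, whose product is a substrate of activated C1, had 3180 to 15100 reads per boar. Landrace boars with low DFI had 109, 129, 139, 175 and 183 CPM, and those with high DFI 176, 335, 204 and 240 CPM. The only overlap came from Landrace high 1, which lay below Landrace low 5 and close to Landrace low 4. The means of 147 ± 31.3 (SD, n = 5) and 238 ± 69.2 CPM (SD, n = 4) gave a logFC of 0.70 (SE 0.20). In Duroc the low DFI boars had 142, 158, 127, 152 and 211 CPM of C4A, and the high DFI boars 207 to 313 CPM with a median of 225. Again Duroc low 5 alone reached the lowest high DFI boars. The Duroc means were 158 ± 31.6 (SD, n = 5) and 245 ± 46.3 CPM (SD, n = 6), and the logFC was 0.63 (SE 0.15).

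Among C1R, C4A and SERPING1, the inhibitor SERPING1 was the one whose Landrace groups did not overlap. Low DFI boars had 14.8, 15.3, 17.7, 24.1 and 23.0 CPM, and high DFI boars 29.7, 62.4, 28.7 and 32.2 CPM. Such a gap, with the whole high DFI group on top, was found for 4.41% of Landrace genes and 2.02% of Duroc genes tested, and since SERPING1 was chosen on this contrast nothing is read from it. The Landrace logFC was 1.01 (SE 0.25), from 19.0 ± 4.33 (SD, n = 5) to 38.2 ± 16.1 CPM (SD, n = 4). Without Landrace high 2, it was 0.67. Duroc boars with low DFI had 23.4, 18.8, 18.7, 26.0 and 32.1 CPM, and those with high DFI 28.4 to 51.3 CPM with a median of 36.2. Here 4 of the 6 high DFI boars exceeded the highest low DFI boar, and the logFC was 0.67 (SE 0.19), from 23.8 ± 5.6 (SD, n = 5) to 37.8 ± 9.21 CPM (SD, n = 6).

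SAA4 had a different pattern. Landrace boars with low DFI had 20.1, 37.9, 80.1, 35.4 and 58.6 CPM, and those with high DFI 15.1, 56.0, 55.4 and 53.7 CPM. The low DFI boars covered the whole range of the high DFI boars except Landrace high 1, which had the lowest level of SAA4 of all 20 boars and also the smallest library. Duroc boars with low DFI had 73.4, 86.7, 95.5, 92.5 and 70.3 CPM, and those with high DFI 46.4 to 57.9 CPM with a median of 52.2. In Duroc the groups were apart, with the whole high DFI group underneath, which held for 1.25% of the genes tested. The Duroc logFC was -0.68 (SE 0.09), from 83.7 ± 11.3 (SD, n = 5) to 52.4 ± 3.83 CPM (SD, n = 6). In Landrace, where SAA4 had not been chosen, edgeR's quasi-likelihood test gave a logFC of -0.04 (SE 0.42; adjusted p = 0.98), which ran from -0.23 to 0.25 as single boars were left out. The exact two-sided permutation test over the 126 splits of the Landrace boars gave p = 0.97, with means of 46.4 ± 23.3 (SD, n = 5) and 45.1 ± 19.97 CPM (SD, n = 4). The width of this estimate does not show that SAA4 was the same in both Landrace groups. The coefficient of variation between boars of 1 group was 50.2% and 44.3% for SAA4 in the Landrace groups and 13.5% and 7.31% in the Duroc groups. Whether the DFI contrast of SAA4 differed between the breeds was not tested here, since the gene was chosen on the Duroc side of it.

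**Figure D1:**
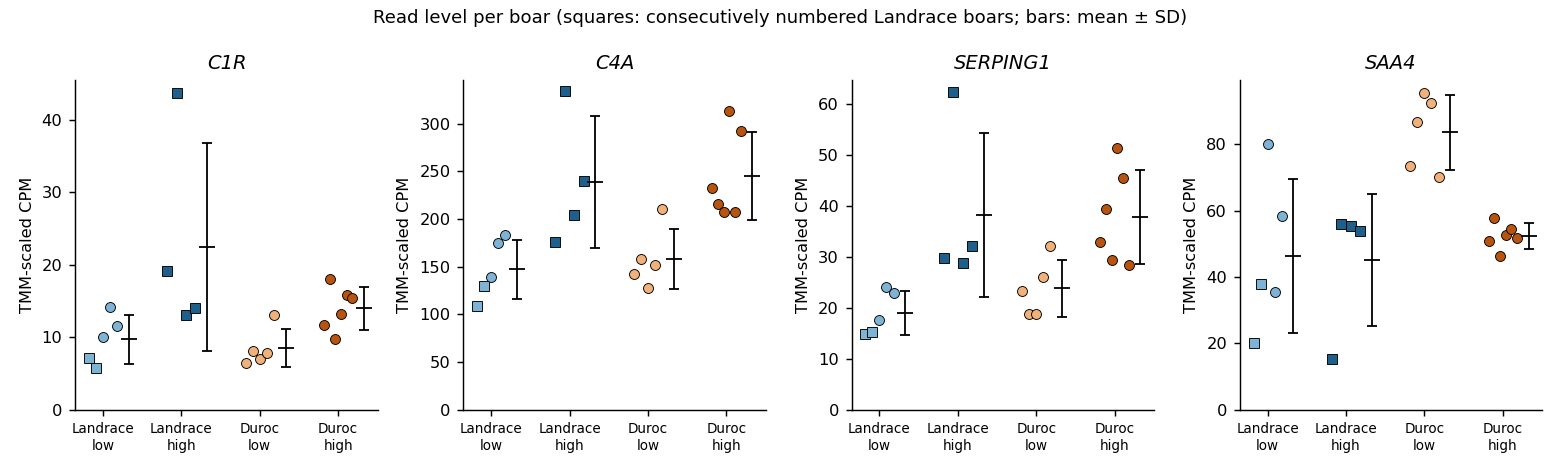
Level of each gene in TMM-scaled CPM (y axis, starting at 0) by breed and DFI group (x axis), with 1 point per boar, squares for Landrace boars with consecutive sample numbers, and bars for mean ± SD. C1R, C4A and SERPING1 lie higher in the high than in the low DFI group of both breeds with some overlap, SERPING1 without overlap in Landrace, whereas SAA4 lies at 46.4 to 57.9 CPM in high and 70.3 to 95.5 CPM in low DFI Duroc boars and is mixed in Landrace.

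Fitted on the 6 consecutively numbered Landrace boars alone, the high against low DFI logFC was 1.81 for C1R, 1.01 for C4A and 1.35 for SERPING1, each larger than over all 9 boars. The low DFI boars of this series, Landrace low 1 and 2, had the lowest levels of all 3 genes in their breed. SAA4 had a logFC of 0.65 within these 6 boars (SE 0.50; adjusted p = 0.62 in edgeR), opposite in sign to the estimate over all 9.

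Of the Leydig cell markers, 4 of 5 listed symbols had a row, CYP11A1, CYP17A1, INSL3 and LHCGR. Their logFC between high and low DFI boars was 1.21 to 1.50 in Landrace and 0.75 to 1.23 in Duroc, with adjusted p of 0.11 to 0.13 and 0.13 to 0.40 in edgeR. Boars of high and low DFI did not overlap for CYP17A1 in Landrace and LHCGR in both breeds. Such a gap, with the whole high DFI group on top, held for 4.41% of Landrace genes and 2.02% of Duroc genes tested. The study chose LHCGR on the Duroc contrast, so its gap there repeats that choice. The summed level of the 4 genes was 1239 to 4108 CPM in low and 4495 to 11964 CPM in high DFI Landrace boars, and 786 to 5945 CPM in low and 3317 to 7011 CPM in high DFI Duroc boars. Landrace high 2, the boar with the highest C1R, C4A and SERPING1, ranked first of the 20 boars in Leydig, in peritubular and fibroblast and in endothelial markers. This boar also ranked 1 of 20 in the red blood cell marker HBB (19.8 CPM), 3 of 20 in macrophage and 19 of 20 in spermatid markers. Its Leydig sum was 11964 CPM. Duroc low 5, the other boar that stood out for C1R, ranked 17 of 20 in the Leydig sum, with 2496 CPM, and 4 of 20 in the peritubular and fibroblast sum, with 213 CPM. The peritubular and fibroblast sum (4 of 5 symbols) had medians of 127 and 207 CPM in low and high DFI Landrace boars and 136 and 190 CPM in Duroc, with overlapping ranges. PECAM1, the endothelial marker with a row, had medians of 17.3 and 27.2 CPM in Landrace and 22.1 and 34.8 CPM in Duroc, also with overlap. The part of Leydig, peritubular or endothelial cells or of blood in the complement values was not tested. CYP11A1 is itself on the study's lists of DFI genes for both breeds, INSL3 on that for Landrace and LHCGR on that for Duroc.

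Among blood and immune markers, 4 of 6 macrophage symbols had a row. Their sum of 39.9 to 82.0 CPM came almost wholly from MRC1 (36.8 to 75.9 CPM), a receptor not limited to macrophages, while CD68, CD14 and CSF1R stayed at or below 5.36 CPM. CSF1R, the receptor of a macrophage growth factor, was on the side of the complement genes, with a high against low DFI logFC of 1.34 (SE 0.44) in Landrace and 0.86 (SE 0.21) in Duroc and adjusted p of 0.15 and 0.11 in edgeR. CD14 had 1.25 (SE 0.37) in Landrace and 0.36 (SE 0.34) in Duroc, with adjusted p of 0.13 and 0.57 in edgeR, whereas CD68 had 0.09 and 0.13 (SE 0.28 and 0.12). The study lists CSF1R for both breeds. The part of macrophages in the complement values was not tested. The summed levels, which mostly reflect MRC1, overlapped between the DFI groups in both breeds, with 53.6 to 76.0 CPM against 56.5 to 74.6 CPM in low and high DFI Landrace boars. SAA4 and complement proteins are made largely in hepatocytes. The hepatocyte markers had a sum of at most 8.54 CPM over ALB, TTR, F2 and APOA2, and TTR and APOA2 had at most 0.252 CPM. ALB had 0.585 to 5.16 CPM and F2 1.60 to 4.09 CPM. In Duroc against Landrace, ALB had a logFC of -1.25 (SE 0.35; adjusted p = 0.047 in edgeR) at low DFI. In that comparison 2.62% of all genes were called lower in Duroc. The level of ALB was 0.689 to 1.06 CPM in Duroc and 1.24 to 5.16 CPM in Landrace. The Landrace mean was 2.11 ± 1.71 CPM (SD, n = 5), and whether the call depended on 1 boar was not tested. At high DFI the logFC of ALB was -0.69 (SE 0.36; adjusted p = 0.27 in edgeR). The part of hepatocyte or plasma RNA in the values of the 4 genes was not tested. The Sertoli sum, in which CLDN11 had 174 to 357 CPM, was 320 to 606 CPM and overlapped between the DFI groups of each breed. Its member GATA4 had a high against low DFI logFC of 0.44 (SE 0.096; adjusted p = 0.097 in edgeR) in Landrace. In Duroc it was 0.22 (SE 0.12; adjusted p = 0.30 in edgeR). Between breeds GATA4 was higher in Duroc by 0.81 at low and 0.60 at high DFI (adjusted p of 0.00026 and 0.0045 in edgeR). The other Sertoli markers with a row passed no adjusted threshold in these comparisons. The spermatocyte sum, from SYCP1 and SYCP3, was 362 to 423 CPM in low and 320 to 362 CPM in high DFI Landrace boars, and 333 to 386 CPM in low and 282 to 331 CPM in high DFI Duroc boars. The spermatid sum had medians of 12708 and 11616 CPM in low and high DFI Landrace boars and 11405 and 10780 CPM in Duroc, with overlapping ranges. The medians of both germ cell sums were thus lower in the high DFI groups, where the means of the complement genes were higher, and their part in these values was not tested either.

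The question of whether the activators moved apart from their inhibitor was followed with the ratio of reads of 2 genes within a boar, which does not depend on library size. The log2 ratio of C1R to SERPING1 was -1.05, -1.42, -0.81, -0.77 and -0.99 in low DFI Landrace boars and -0.63, -0.51, -1.14 and -1.19 in high DFI Landrace boars. Of the high DFI boars 2 were above the low DFI range and 2 within it, and the difference of means, high minus low DFI, was 0.14 (SE 0.21). In Duroc the ratio was -1.87, -1.21, -1.42, -1.74 and -1.30 in low DFI boars and -1.95 to -0.89 in high DFI boars, with a difference of 0.08 (SE 0.20). The log2 ratio of C4A to SERPING1 was 2.86 to 3.08 in the 5 low DFI and 2.57, 2.42, 2.83 and 2.90 in the high DFI Landrace boars. The ratio was below the low DFI range in 3 of the 4 high DFI boars, and the difference was -0.28 (SE 0.12). In Duroc it was -0.03 (SE 0.19), with 2.54 to 3.07 in low and 2.19 to 3.36 in high DFI boars. These ratios combine genes chosen on the same contrast and were not tested. In none of the 4 cases did the groups separate.

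Between the breeds, the ratio of C1R to SERPING1 was lower in Duroc, by 0.50 (SE 0.17) at low and 0.56 (SE 0.23) at high DFI on the log2 scale. At low DFI the Duroc boars had -1.87 to -1.21 and the Landrace boars -1.42 to -0.77, and at high DFI the ranges were -1.95 to -0.89 and -1.19 to -0.51. The ranges overlapped at both DFI levels, and the ratio was not tested. For C4A to SERPING1 the breed difference was -0.22 (SE 0.10) at low and 0.03 (SE 0.20) at high DFI.

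Set against SAA4, the complement genes gave ratios that separated the DFI groups in Duroc and not in Landrace. In Duroc the log2 ratio of C1R to SAA4 was -3.77 to -2.43 in low and -2.24 to -1.69 in high DFI boars, a difference of 1.41 (SE 0.25). The ratio of C4A to SAA4 was 0.95, 0.86, 0.42, 0.72 and 1.58 in low and 1.90 to 2.57 in high DFI Duroc boars, a difference of 1.30 (SE 0.22). For SERPING1 to SAA4 the difference was 1.33 (SE 0.25), again without overlap. Both sides of each ratio had been chosen on this contrast, one up and the other down, so the separation is a description of that choice. In Landrace the differences were 1.16 (SE 0.68), 0.75 (SE 0.46) and 1.03 (SE 0.54), and the groups overlapped for all 3 ratios. Landrace high 1, with few SAA4 reads (274), had the highest ratio of all boars in each.

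**Figure D2:**
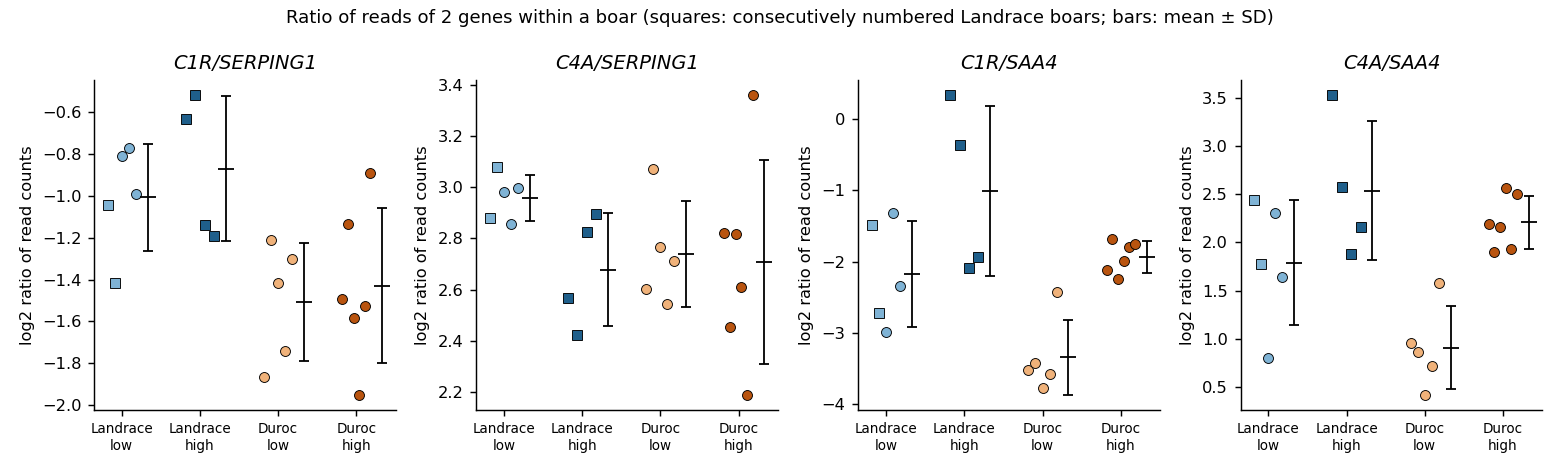
Log2 ratio of the reads of 2 genes within a boar (y axis, scaled to the values of each panel) by breed and DFI group (x axis), with 1 point per boar, squares for consecutively numbered Landrace boars, and bars for mean ± SD. The activator to inhibitor ratios overlap between DFI groups in both breeds, while the ratios to SAA4 separate the Duroc groups (C4A to SAA4 at 0.42 to 1.58 in low and 1.90 to 2.57 in high DFI boars).

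The breeds were compared within each DFI group in 1 fit of all 20 boars. This contrast was not the one used to choose the genes, but the values of the same boars were. SAA4 was picked with high levels in low DFI Duroc boars, which are 1 arm of the low DFI breed comparison. C1R was picked with high levels in the high DFI boars of both breeds, which are both arms of the high DFI comparison. At low DFI, 4.92% of the 14636 genes tested differed between Duroc and Landrace at an adjusted p under 0.05, and 5.73% did at high DFI. None of the 4 genes passed this threshold in either comparison, while 1 passed an unadjusted p of 0.05 at low DFI (SAA4) and 1 at high DFI (C1R), against 18.8% and 23.0% of all genes. SAA4 lay in the direction that its choice favours, whereas the choice of C1R gives no clear direction between the breeds. Neither is independent evidence of a breed difference, since the choice used the same boars.

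SAA4 was higher in Duroc at low DFI by a logFC of 0.85 (SE 0.30), 83.7 against 46.4 CPM, with an adjusted p of 0.12 in edgeR's quasi-likelihood test. The exact two-sided permutation test over 252 splits gave p = 0.024 (unadjusted). Of the 5 Duroc boars, 3 lay above all Landrace boars, and Landrace low 3 (80.1 CPM) was the Landrace boar inside the Duroc range. Without that boar the logFC was 1.14 and the adjusted p 0.028, and in the likelihood ratio test of edgeR it was 0.038. The call thus depended on the test and on 1 boar. Without the consecutively numbered Landrace low 1 and 2 the logFC was 0.53 (adjusted p = 0.47 in edgeR), over 1.5 times smaller. At high DFI the SAA4 difference was 0.21 (SE 0.31; adjusted p = 0.73 in edgeR), and -0.06 without Landrace high 1.

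C1R was lower in Duroc at high DFI by a logFC of -0.69 (SE 0.30), 14.0 against 22.5 CPM, with an adjusted p of 0.18 in edgeR. The exact permutation test over 210 splits gave p = 0.22 (two-sided, unadjusted). Only 2 of the 6 Duroc boars lay below all Landrace boars, and without Landrace high 2 the logFC was -0.14. At low DFI, C1R differed by -0.20 (SE 0.31; adjusted p = 0.80 in edgeR).

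C4A and SERPING1 also passed no threshold between breeds. For C4A they were 0.10 (SE 0.18) at low and 0.04 (SE 0.18) at high DFI, with adjusted p of 0.83 and 0.93 in edgeR. For SERPING1 they were 0.33 (SE 0.23) and -0.02 (SE 0.23), with adjusted p of 0.48 and 0.98 in edgeR, and the low DFI value was 0.20 without Duroc low 5 and 0.14 without Landrace low 1 and 2. The exact permutation tests of these 4 comparisons gave unadjusted p between 0.15 and 0.96. Blood in the tissue was tracked by the haemoglobin gene HBB, whose level was 0.827 to 3.40 CPM in Duroc and 1.73 to 19.8 CPM in Landrace. HBB was lower in Duroc at low DFI by a logFC of -2.62 (SE 0.53; adjusted p = 0.0066 in edgeR). At high DFI its logFC was -2.90 (SE 0.51; adjusted p = 0.0025 in edgeR). Beside these calls, 2.62% and 2.85% of all genes were called lower in Duroc at low and high DFI. The part of blood in the breed values was not tested.

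**Figure D3:**
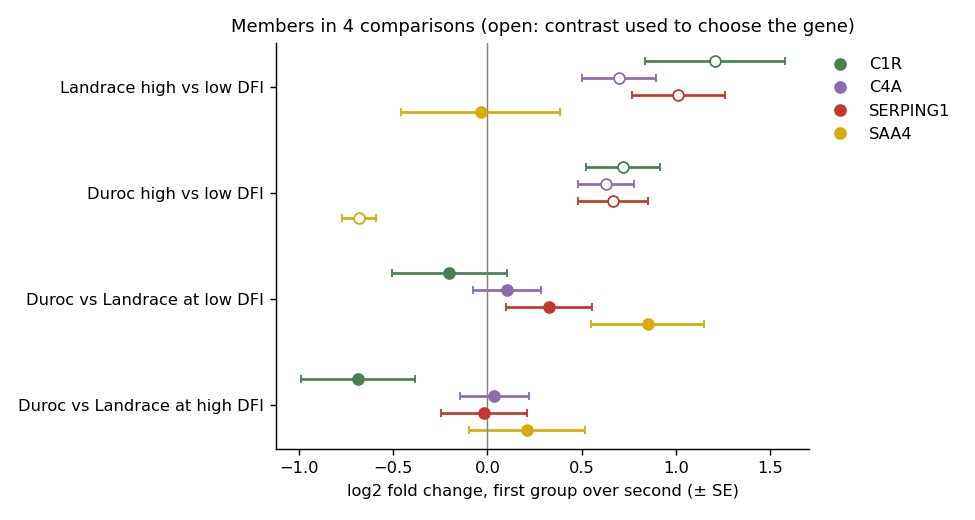
Log2 fold change (x axis, ± SE) of the 4 genes in each of 4 comparisons (y axis), with open points where the gene had been chosen on that contrast and filled points where it was tested. C1R, C4A and SERPING1 lie at 0.63 to 1.21 in the high against low DFI comparisons, SAA4 at -0.68 in Duroc and -0.04 in Landrace, and no filled point passed an adjusted p of 0.05.

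Within groups, boars with more C1R also had more SERPING1. After the mean of each group was removed from log2(CPM + 0.5), Pearson's r over the 20 boars was 0.78 for C1R and SERPING1 (Spearman's rho 0.65), 0.72 for C4A and SERPING1 (rho 0.60) and 0.68 for C1R and C4A (rho 0.53). In permutation tests of boars within groups the p were 0.0016, 0.0029 and 0.0074 for r and 0.0056, 0.014 and 0.034 for rho. Adjusted over the 6 pairs of genes they were 0.0088, 0.0088 and 0.015 for r and 0.034, 0.041 and 0.068 for rho. SAA4 was not related to the complement genes past the threshold, with r of 0.16 for C1R, 0.40 for C4A and 0.25 for SERPING1 (rho 0.12, 0.26 and 0.13) and adjusted permutation p of 0.66, 0.27 and 0.50 for r.

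The relation among the complement genes rested on few boars. Without the 2 boars farthest from the median, Landrace high 2 and Duroc low 5, r was 0.55 for C1R and SERPING1, 0.50 for C4A and SERPING1 and 0.40 for C1R and C4A, with adjusted permutation p of 0.23, 0.23 and 0.30. Within Landrace alone r was 0.94, 0.93 and 0.77 (n = 9, adjusted permutation p of 0.0095, 0.0095 and 0.081). Within Duroc alone it was 0.53, 0.44 and 0.52 (n = 11, adjusted permutation p of 0.38, 0.40 and 0.38). C4A and SAA4 had r of 0.61 in Landrace and -0.38 in Duroc, neither past the threshold. Every gene of a boar comes from the same tissue piece and library. For likeness with C1R, SERPING1 ranked 44, C4A 244 and SAA4 5026 among 14635 other genes.

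**Figure D4:**
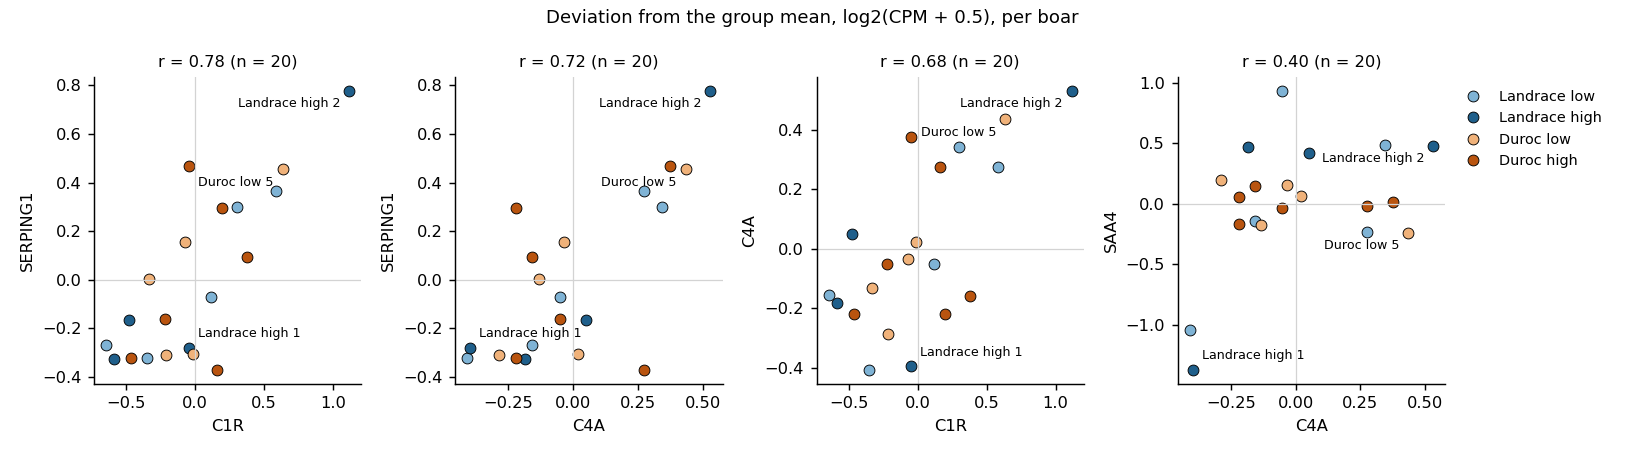
Deviation of each boar from its group mean in log2(CPM + 0.5) for 4 pairs of genes (axes), with 1 point per boar coloured by group and 3 boars named. The complement genes vary together, with r of 0.68 to 0.78 and Landrace high 2 at the top right of those 3 panels, whereas C4A and SAA4 (r = 0.40) form a cloud with Landrace high 1 at the bottom left.

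The 5 genes with a symbol whose group-centred level was most like each member's were found in the same way, as a description over 20 boars. For C1R they were MX1 (r = 0.87), RHBDF2 (0.86), SLA-DQB1 (0.86), CTSS (0.85) and RPA1 (0.84). MX1 is an interferon-induced antiviral GTPase, SLA-DQB1 a class II histocompatibility chain and CTSS the lysosomal protease cathepsin S. Their mean levels were highest in high DFI Landrace boars, with 9.34 CPM of MX1 against 2.10 to 3.52 CPM in the other groups. Without Landrace high 2 and Duroc low 5, r was 0.65 to 0.79 for these genes. MX1, RHBDF2, SLA-DQB1 and CTSS are on the study's Landrace list of DFI genes. For C4A they were RAD9A, PEX5, TBC1D13, APP and CORO1B (r of 0.83 to 0.86), of which APP, the amyloid precursor protein, is on the study's lists for both breeds and CORO1B on that for Duroc. For SERPING1 they were ADHFE1, NCSTN, PTN, RECQL and PAM (r of 0.82 to 0.86). NCSTN encodes nicastrin, a subunit of the gamma-secretase that cuts the amyloid precursor, and PTN the growth factor pleiotrophin, which the study lists for both breeds. For SAA4 they were SNAP91 (0.89), CTNND1 (0.87), NEDD4L (0.83), TMEM130 (0.82) and TBC1D8B (0.81), and without the same pair of boars r was 0.80 to 0.91. The 4 sets shared no gene.

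Of 45 other complement symbols, 28 had a row and 18 to 20 passed the filter in a given comparison. In the breed comparisons at low DFI, 1 was higher and 1 lower in Duroc at an adjusted p under 0.05 in edgeR, beside 2.3% and 2.62% of all genes in these directions. The median logFC over the 20 tested was 0.06, beside -0.0020 over all genes. At high DFI, 1 was higher and 2 were lower, beside 2.88% and 2.85% of all genes, with a median of -0.28 beside -0.01. The called genes had low counts except CLU.

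The lectin COLEC11, a collectin that starts the lectin pathway, was lower in Duroc at both DFI levels. At low DFI it had 2.82 ± 0.953 CPM in Duroc (SD, n = 5) and 6.91 ± 2.61 CPM in Landrace (SD, n = 5), with a logFC of -1.29 (SE 0.35; adjusted p = 0.036 in edgeR). At high DFI the logFC was -1.42 (SE 0.35; adjusted p = 0.020 in edgeR). The groups overlapped slightly both times, with 1.71 to 4.30 against 4.20 to 10.1 CPM at low DFI. The low DFI call was lost without any 1 of Landrace low 1, 2 and 4 and Duroc low 1, 2, 4 and 5 (highest adjusted p = 0.089 in edgeR), and without both Landrace low 1 and 2 (-1.22, adjusted p = 0.14 in edgeR). The high DFI call was lost without Landrace high 1 or 4 (highest adjusted p = 0.085 in edgeR) and in a fit of the high DFI boars alone (0.054).

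C6, a part of the membrane attack complex, was higher in Duroc at low DFI by 2.10 (SE 0.50; adjusted p = 0.017 in edgeR), at levels of 1.03 to 4.25 against 0.287 to 1.63 CPM. Leaving out Landrace low 1 or Duroc low 2 raised its adjusted p to 0.052. Without both consecutively numbered low DFI Landrace boars the adjusted p was 0.14, with a logFC of 1.73. At high DFI the difference in C6 was 0.51 (SE 0.51; adjusted p = 0.59 in edgeR).

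Among fluid-phase regulators, the row named C4BPA in the gene table was lower in Duroc at high DFI by -1.71 (SE 0.40; adjusted p = 0.015 in edgeR), with 0.477 to 1.46 against 1.22 to 5.31 CPM. Without Landrace high 1 the adjusted p was 0.067. At low DFI the difference of this row was -1.13 (SE 0.40; adjusted p = 0.12 in edgeR). C4BPA encodes a chain of the C4b-binding protein, which acts as a brake on C4 downstream of C1. The study gives this symbol to another row, which is on its Duroc list of DFI genes, so the name is uncertain. The row used here did not pass the filter in the Duroc fit of high against low DFI. CLU, clusterin, which holds back the membrane attack complex and is abundant in the testis, had 1857 to 3255 CPM in Duroc and 1358 to 1869 CPM in Landrace at high DFI. Its logFC of 0.48 (SE 0.14; adjusted p = 0.046 in edgeR) lost the call without any 1 of Landrace high 1, 2 and 3 and Duroc high 1, 4 and 5 (highest adjusted p = 0.11 in edgeR). It also lost it in a fit without a filter and in one of the 2 high DFI groups alone (adjusted p = 0.065 and 0.13 in edgeR).

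The remaining complement genes passed no adjusted threshold between breeds. At an unadjusted p under 0.05, C5, the component split to start the terminal pathway, was lower in Duroc by -0.33 (SE 0.16) at low and -0.45 (SE 0.16) at high DFI. ITGAM, a chain of complement receptor 3, was higher by 0.37 (SE 0.12) and 0.30 (SE 0.12). The adjusted p of these values in edgeR were 0.26 and 0.097 for C5 and 0.082 and 0.15 for ITGAM. C5 at high DFI passed without Duroc high 2 (0.038), and ITGAM at low DFI without Landrace low 4 (0.027).

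In the comparisons of high with low DFI, none of the other complement genes passed an adjusted p of 0.05 in edgeR's quasi-likelihood test, which called 0% of the 14519 Landrace genes and 0.0136% of the 14666 Duroc genes. That test called 0 genes in Landrace and 2 in Duroc, the likelihood ratio test, which is the kind of test the study used, 767 and 376 and DESeq2 842 and 869. The study itself reported far fewer genes in Landrace than the likelihood ratio test called here, and a similar number in Duroc. At an unadjusted p under 0.05, 3 of 18 complement genes were higher in high DFI Landrace boars and none lower, beside 12.1% and 4.53% of all genes. In Duroc 3 of 19 were higher and 1 lower, beside 11.3% and 9.89%. The medians over the complement genes were 0.18 in Landrace and 0.04 in Duroc, beside -0.01 and 0.01 over all genes.

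The Landrace genes were C7, C9 and CFD. C7, which joins the membrane attack complex after C6, had 1.45 ± 0.484 CPM in low (SD, n = 5) and 5.33 ± 3.51 CPM in high DFI Landrace boars (SD, n = 4) without overlap, with a logFC of 1.87 (SE 0.40; adjusted p = 0.097 in edgeR). It passed with the likelihood ratio test and DESeq2 (adjusted p of 0.00022 and 0.0012). C9, which forms the pore itself, had a logFC of 1.16 (SE 0.44; adjusted p = 0.22 in edgeR) and 0.52 without Landrace high 2. CFD, the factor D protease that starts the alternative pathway, had 0.64 (SE 0.26; adjusted p = 0.25 in edgeR) and 0.43 without Landrace high 2. The study lists C7 and CFD for Landrace from a likelihood ratio test of the same boars. Their direction and the passes of C7 therefore repeat that choice and are no independent evidence.

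The Duroc genes were CFD, C9, ITGB2 and C6. CFD had 3.31 to 7.18 CPM in low and 6.79 to 7.92 CPM in high DFI Duroc boars, with a logFC of 0.77 (SE 0.19; adjusted p = 0.11 in edgeR). It is on the study's Duroc list, and it passed with the likelihood ratio test (adjusted p = 0.020), with DESeq2 (0.0093) and without Duroc low 5 (0.0032 in edgeR). The study chose CFD with a likelihood ratio test of the same boars. Those passes therefore repeat the choice and are no independent evidence. C9 had 0.76 (SE 0.31; adjusted p = 0.20 in edgeR). ITGB2, the beta chain of the leukocyte integrins, had 0.57 (SE 0.21; adjusted p = 0.16 in edgeR). C6 was lower in high DFI Duroc boars by -0.93 (SE 0.40; adjusted p = 0.21 in edgeR). C3, the protein on which all complement pathways converge, had -0.15 (SE 0.25) in Landrace and -0.32 (SE 0.17) in Duroc, at 78.1 to 202 CPM over the groups, and adjusted p of 0.83 and 0.29 in edgeR. The other classical genes tested, C1QA, C2 and C5, had 0.60 (SE 0.34), 0.50 (SE 0.30) and -0.12 (SE 0.12) in Landrace. In Duroc they had -0.08 (SE 0.22), 0.17 (SE 0.14) and -0.25 (SE 0.17). Their adjusted p in edgeR were 0.42 to 0.86.

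**Figure D5:**
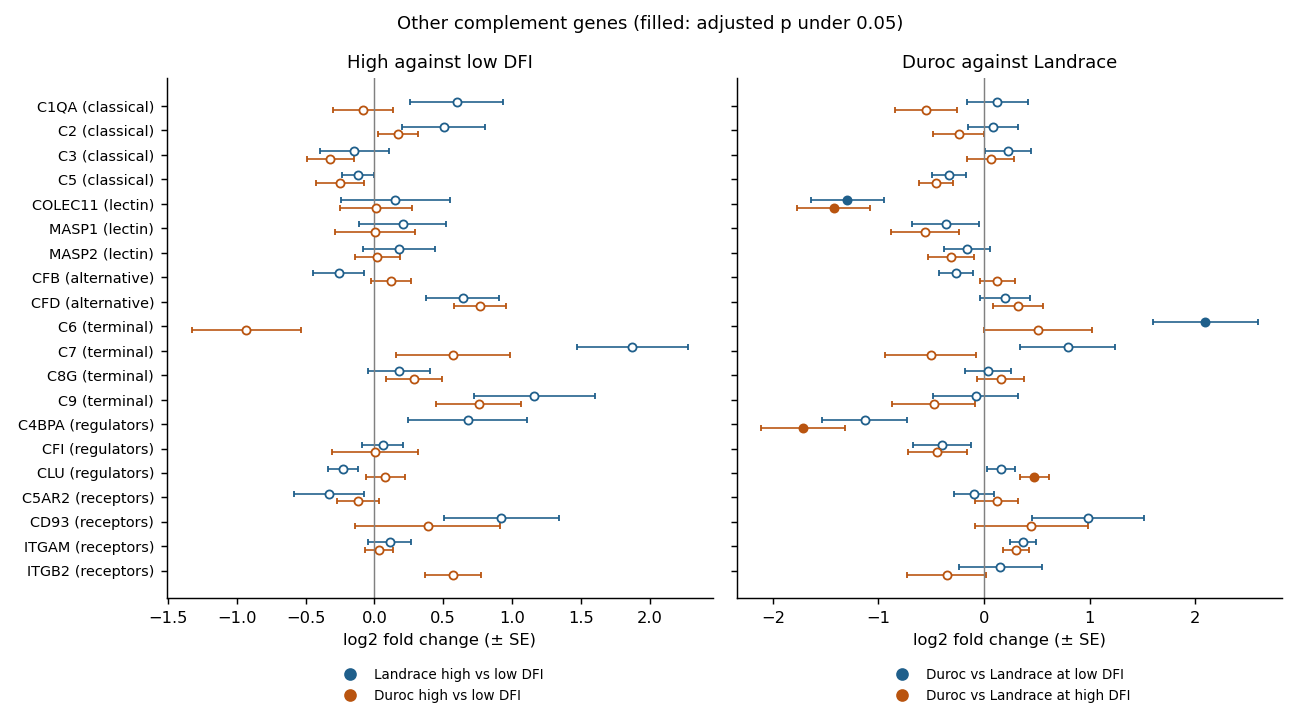
Log2 fold change (x axis, ± SE) of other complement genes that passed the filter, ordered by role (y axis), for high against low DFI in each breed (left) and Duroc against Landrace at each DFI level (right), with filled points at an adjusted p under 0.05. Filled points are COLEC11 at both DFI levels (-1.29 and -1.42), C6 at low DFI (2.10), and C4BPA (-1.71) and CLU (0.48) at high DFI, all in the right panel.

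Acute phase and apolipoprotein genes were set beside SAA4. Of 20 symbols 10 had a row and 4 were tested, APOE, CP, ITIH4 and PTX3, while other serum amyloid genes had no row under their symbols. None passed an adjusted threshold in any of the 4 comparisons. At an unadjusted p under 0.05, APOE and ITIH4 were higher at high DFI in both breeds, opposite in sign to SAA4 in Duroc. These were 2 of the 4 tested, beside 12.1% of all Landrace genes and 11.3% of all Duroc genes higher at that threshold. APOE, a lipoprotein ligand also used by steroidogenic cells, had 13.3 to 92.1 CPM in low and 95.7 to 156 CPM in high DFI Duroc boars, with a logFC of 1.20 (SE 0.37; adjusted p = 0.13 in edgeR). In Landrace it was 1.02 (SE 0.40; adjusted p = 0.23 in edgeR) and 0.58 without Landrace high 2. The likelihood ratio test of edgeR gave adjusted p of 0.013 and 0.041 for APOE in Duroc and Landrace. ITIH4, a plasma protease inhibitor, had 0.78 (SE 0.19) in Landrace and 0.61 (SE 0.28) in Duroc, with adjusted p of 0.10 and 0.23 in edgeR, and passed in Landrace with the likelihood ratio test (0.019) and DESeq2 (0.010). Without Duroc high 6 the Duroc value was 0.40. APOE is on the study's Duroc list, so its likelihood ratio result in Duroc repeats that choice and is no independent evidence. Between breeds, PTX3, a pentraxin that binds C1q, was lower in Duroc by -0.34 (SE 0.15) at low and -0.42 (SE 0.15) at high DFI, with adjusted p of 0.19 and 0.092 in edgeR (0.030 at high DFI without Duroc high 4). ITIH4 was lower by -0.57 (SE 0.25; adjusted p = 0.18 in edgeR) at high DFI.

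In the RefSeq table of the pig assembly Sscrofa11.1, which is not the build of the counts, C1R lies between C1RL and C1S, C4A between STK19 and CYP21A2, and SAA4 beside SAA2. None of the 4 genes overlaps another gene there. Serum amyloid genes are close copies of each other, and the reads were 50 bases long and not strand-specific, so the reads assigned to SAA4 are uncertain to that extent.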

How the data were processed

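Testis RNA of 20 boars was sequenced as non-stranded libraries of 50-base single-end reads. The deposited values are raw counts: the authors mapped the reads with TopHat2 2.0.12 to the pig genome Sscrofa10.2 and counted them per Ensembl gene (release 75) with HTSeq, ignoring strand. The lowest value in every file is 1, and whether the authors changed 0 to 1 is not given in the sources used here. No value was normalized. Groups came from the sample labels. Genes above 1 CPM in at least 10 of 20, 5 of 9 or 6 of 11 boars fitted were kept. The breeds were compared in 1 fit of 20 boars and DFI groups in 1 fit per breed, with edgeR 4.0.16 (R 4.3.3), TMM scaling (factors 0.958 to 1.10), quasi-likelihood F-tests, and Benjamini-Hochberg adjustment over every gene kept, threshold 0.05. The method was tested on simulated data. SE is the logFC divided by the root of the F statistic. Correlations used 100000 permutations and a pseudocount of 0.5 CPM, and single values exact permutation tests. All 41 pairs of boars within groups differed beyond sampling noise (chi-square per degree of freedom 16.3 to 103). Each boar is 1 library. Every member was named. Other complement and acute phase genes were named where they passed an unadjusted p of 0.05. C3 and the DFI values of C1QA, C2 and C5 were added after their values were seen. The members and lists were chosen with earlier results of these data known. Symbols of C1R and SAA4 come from the study and those of other genes from the gene table. The study also fitted each breed alone, but with edgeR 3.2.4 and the likelihood ratio test with tagwise dispersion, which was run here as an alternative. The other alternatives were DESeq2 1.42.0, RLE scaling, no filter, values of 1 set to 0, other sets of boars and each boar left out.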

Additional observations from a re-analysis of the deposited data

Results flagged for a closer look

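Boars that stood apart from their group were looked for with Dixon's test at its 95% critical value in 16 combinations of gene and group, of which chance flags about 1 in 20. C1R in Duroc low 5 was 13.0 CPM, while the other low DFI Duroc boars had 6.40 to 8.13 CPM. SERPING1 in Landrace high 2 was 62.4 CPM, against 28.7 to 32.2 CPM in the other high DFI Landrace boars. SAA4 in Landrace high 1 was 15.1 CPM, from 274 reads in the smallest library, against 53.7 to 56.0 CPM in the other high DFI Landrace boars. The causes were not tested.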

How the results depend on the processing

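No paired analysis was possible because the labels give no replicate numbers that pair boars. Between breeds at low DFI, 720 genes were called, 1095 with DESeq2, 358 without Landrace low 1 and 2, and 455 to 749 with 1 boar left out. At high DFI, 838 were called, 1377 with DESeq2, 546 in a fit of these groups alone, and 563 to 807 with 1 boar left out. For high against low DFI, the 0 Landrace calls (2417 genes at an unadjusted p under 0.05) became 767 with the likelihood ratio test, 842 with DESeq2, 1 without a filter and 0 to 2 with 1 boar left out. The 2 Duroc calls became 376, 869, 0 and 0 to 17.

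The breed logFC of C4A at low DFI was -0.070 without Landrace low 1 and 2, and -0.013 to 0.19 with 1 boar left out. At high DFI those ranges were -0.072 to 0.25 for C4A, -0.13 to 0.33 for SERPING1, -0.87 to -0.14 for C1R and -0.063 to 0.33 for SAA4. At low DFI they were 0.66 to 1.14 for SAA4, which was 0.85 and past the threshold with the likelihood ratio test. SAA4 in Landrace was 0.65 in the 6 consecutively numbered boars and -0.23 to 0.25 with 1 boar left out. The correlations of C1R and SERPING1, C4A and SERPING1, and C1R and C4A missed the threshold in Duroc alone (0.53, 0.44 and 0.52) and without the 2 farthest boars (0.55, 0.50 and 0.40), and the last did in Landrace alone (0.77). In Duroc alone, SAA4 had r of -0.38 with C4A and -0.13 with SERPING1. The causes of these changes were not tested. Over all alternatives and named genes, 643 values kept their direction and side of the threshold or stayed near the reported value, while 17 changed sign, 30 no longer passed, 14 passed anew and 25 counts moved by over 1.5 times. The likeness of genes without Landrace high 2 and Duroc low 5 was added after the data were seen. Group sizes of 4 to 6, 1 library per boar and counts of few reads for C6 (at least 13) and C4BPA (at least 17) limit precision.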
